A study of Rattus norvegicus with 20 samples.

Results

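Cytochrome P450 families 2, 3 and 4 of the rat liver were taken as every gene of the table whose symbol begins with Cyp2, Cyp3 or Cyp4 and a following letter, without the Cyp2b and Cyp4a subfamilies and Cyp2e1. This gave 40 of the 32883 genes in the table, of which 24 belong to family 2, 4 to family 3 and 12 to family 4. The study sequenced liver RNA of 20 male rats, 1 library per rat, and divided the animals into 4 groups of 5. The CON rats, labelled healthy, received the vehicle, sodium carboxymethylcellulose at 0.5%. BGZ_L rats, also labelled healthy, received BGZ_L powder at 0.9 g/kg, and the series title names Psoraleae Fructus as the remedy under study. KYDS rats received hydrocortisone, a glucocorticoid, at 25 mg/kg, and are labelled with kidney-yang deficiency syndrome. KYDS+BGZ_L rats, with the same disease label, received both agents at these doses. No source used here gives the strain, the age or how long the rats were treated.

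Cytochrome P450 enzymes of these families sit in the membrane of the endoplasmic reticulum, take electrons from cytochrome P450 reductase (Por), and insert oxygen into lipophilic molecules. Those of families 2 and 3 oxidise drugs and steroid hormones, and those of family 4 hydroxylate fatty acids and eicosanoids. In the liver their transcription is known to depend on the nuclear receptors PXR (Nr1i2) and CAR (Nr1i3), on the glucocorticoid receptor (Nr3c1) and, for the genes that differ between male and female rats, on the rhythm of growth hormone.

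Levels are given as scaled TPM: TPM is a share of transcripts corrected for their length, and a trimmed mean of the log ratios of all genes was used to bring the libraries to a common level. Sequencing depth cannot be read from such values. Differences are log2 fold changes ± SE of scaled TPM plus 0.5, from 1 limma fit over 11867 genes in all 20 libraries, and a difference passed where its two-sided p, adjusted over those genes, was under 0.05. The labels do not say how the 5 rats of a group were housed or sampled, so the p-values measure the spread between these 20 livers. Several of these genes have near-identical relatives within a subfamily. How reads that fit more than 1 of them were assigned is unknown, so differences between close relatives, such as Cyp2d2, Cyp2d3 and Cyp2d5, are uncertain.

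The libraries were uneven in ways that touch the results. Mitochondrially encoded transcripts took a mean of 75.1% of TPM in CON, 67.3% in BGZ_L, 42.4% in KYDS and 48.9% in KYDS+BGZ_L, and from 19.2% to 90.1% in single libraries. The lowest scaling factors, 0.231 and 0.345, belonged to CON 2 and BGZ_L 3. Markers of hepatocytes, 8 genes such as Alb and Apoa1, were present in every group, as a liver sample should show, but their summed level ran from 5176 to 9403 scaled TPM in CON, 5300 to 6198 in BGZ_L, 6402 to 63949 in KYDS and 9166 to 45186 in KYDS+BGZ_L. KYDS 3, KYDS+BGZ_L 4 and KYDS+BGZ_L 1 held the highest sums, at 63949, 45186 and 40540. Calls that were lost without CON 2 and BGZ_L 3, or without the other 3, are given with those values. In whole liver, fewer cells of a type and less RNA per cell cannot be told apart.

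Levels spanned about 3 orders of magnitude. Cyp2c6v1, a constitutive drug-metabolising enzyme of the 2C subfamily, was the most abundant, with a mean of 1001 scaled TPM over the 20 libraries, which placed it 53rd among 11854 tested nuclear genes. Next came Cyp3a23/3a1, the glucocorticoid-inducible 3A enzyme, at 203, Cyp2d2, the main rat counterpart of the human debrisoquine hydroxylase, at 179, Cyp2c13, a male-specific steroid hydroxylase, at 177, Cyp2d5 at 173 and Cyp2d3 at 151. Among these 5 the neighbours in the order did not differ beyond their spread between libraries, and the order changed with the group. Cyp2c13 was second in CON, at 169, and in BGZ_L, at 131, where Cyp3a23/3a1 was at 134 and 90, and Cyp3a23/3a1 was second in KYDS, at 258, and KYDS+BGZ_L, at 329. Cyp2c6v1 was the highest of the 40 in each group mean, and Cyp2a1, a testosterone hydroxylase, followed these 6 at 109.

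**Figure D1:**
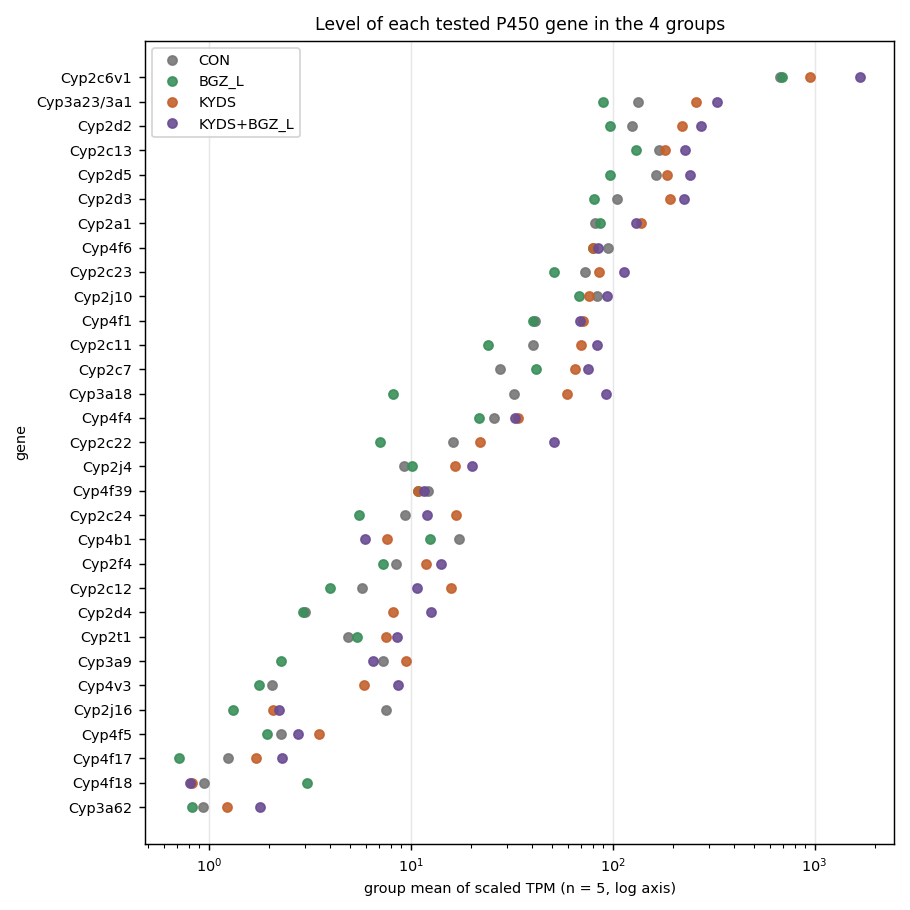
Group means of scaled TPM (log axis, n = 5 libraries per group) for the 31 genes that passed the filter on low values, ordered by their mean over all libraries. Cyp2c6v1 stands alone at the top, and the widest gap between group means is that of Cyp3a18, from 8.19 in BGZ_L to 93.3 in KYDS+BGZ_L.

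Of the 40 genes, 31 reached 0.5 scaled TPM in at least 5 libraries and were tested. The other 9 were not. Cyp2ab1, Cyp2g1 and Cyp2w1 were listed at 0 in every library. Cyp2r1, a vitamin D hydroxylase, Cyp2s1, Cyp2u1, Cyp4f37 and Cyp4f40 had group means below 0.5. Cyp4x1 was listed at 0 in 18 libraries, at 33.7 in BGZ_L 3 and at 1.27 in KYDS+BGZ_L 1.

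The promoters of 4 genes are shown because 3 of them, Cyp3a18, Cyp3a23/3a1 and Cyp2c22, had the largest rises described further on and the fourth, Cyp4b1, was the only one to pass as lower on the scaled values (in KYDS against CON its log2 difference was 0.11 without scaling). Each is the 250 bases before the RefSeq transcription start, 5′ to 3′ on the strand of the gene, in the rat assembly GRCr8. They lie at chr12:13994062-13994311 (plus strand) for Cyp3a18, chr12:14398804-14399053 (minus) for Cyp3a23/3a1, which RefSeq writes Cyp3a23-3a1, chr1:248980768-248981017 (minus) for Cyp2c22 and chr5:134393117-134393366 (minus) for Cyp4b1. Capitals mark AGGTCA or AGTTCA, to which nuclear receptors such as PXR are known to bind, on either strand. AGAACA, which the glucocorticoid receptor is known to bind, was searched as well and is in none of the 4.
Cyp3a18: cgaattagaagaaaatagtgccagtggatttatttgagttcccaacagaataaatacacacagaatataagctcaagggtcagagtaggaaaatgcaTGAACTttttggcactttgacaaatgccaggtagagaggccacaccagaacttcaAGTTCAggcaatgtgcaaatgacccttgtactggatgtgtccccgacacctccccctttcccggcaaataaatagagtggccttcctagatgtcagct
Cyp3a23/3a1: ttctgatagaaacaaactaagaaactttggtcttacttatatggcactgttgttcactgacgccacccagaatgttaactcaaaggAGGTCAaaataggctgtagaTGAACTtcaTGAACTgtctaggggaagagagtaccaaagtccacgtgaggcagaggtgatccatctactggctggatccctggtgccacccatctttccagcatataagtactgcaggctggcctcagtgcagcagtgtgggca
Cyp2c22: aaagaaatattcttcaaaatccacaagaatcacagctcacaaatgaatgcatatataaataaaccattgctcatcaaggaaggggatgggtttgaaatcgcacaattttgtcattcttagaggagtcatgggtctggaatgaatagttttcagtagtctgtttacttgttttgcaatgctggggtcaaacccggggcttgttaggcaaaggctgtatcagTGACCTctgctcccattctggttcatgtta
Cyp4b1: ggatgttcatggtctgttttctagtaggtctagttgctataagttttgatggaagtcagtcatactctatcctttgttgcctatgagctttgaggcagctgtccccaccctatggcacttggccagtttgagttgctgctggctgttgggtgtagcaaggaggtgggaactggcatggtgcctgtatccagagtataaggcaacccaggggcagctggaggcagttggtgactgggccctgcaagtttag

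Cyp3a18 held AGTTCA from -153 to -148 and from -98 to -93, counted in bases from the start. Cyp3a23/3a1 held AGGTCA from -164 to -159, and 2 copies of AGTTCA, 3 bases apart, from -144 to -139 and from -135 to -130. That repeat, a direct repeat of the kind PXR is known to bind, occurred in 2 of the 27457 windows of all genes. Cyp2c22 held AGGTCA from -30 to -25, and none of these letters were found in the Cyp4b1 window. RefSeq windows were found for 35 of the 40 genes. AGTTCA was in 9 of the 35, against 12.1% of all windows, AGGTCA in 8, against 13.7%, AGAACA in 8, against 17.1%, and TTCNNNGAA, the core of the STAT5 site through which growth hormone acts, in 3, against 7.52%. In the 27 windows of tested genes these counts were 7, 4, 7 and 2, in the same order. Windows of close relatives are not independent, so the counts are no test against the shares. The full glucocorticoid palindrome, AGAACA and its reverse complement 3 bases apart, was in none of the 35, and in 0.00364% of all windows. AGTTCA and its repeat were added to the search after the values were known, and all matches are descriptions of letters, not of bound sites.

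KYDS against CON asks what hydrocortisone did without BGZ_L. Cyp4v3, a fatty acid hydroxylase, and Cyp2c12, a steroid sulfate hydroxylase known as female-specific in rats, rose, and Cyp4b1, a lung-enriched enzyme that activates protoxins, fell, although its value was 0.11 log2 without scaling. These were 3 of 31 tested genes, and over all 11867 genes 6.27% passed (3.25% higher and 3.02% lower), so the count is near the background. The median log2 difference of the 31 was 0.58, against 0.05 over all genes, and 26 were positive and 5 negative. The other 28 genes did not pass.

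Cyp4v3 was at 1.28, 1.51, 1.39, 2.66 and 3.51 scaled TPM in CON 1 to CON 5. In KYDS 1 to KYDS 5 it was at 6.18, 5.61, 5.78, 3.49 and 8.32. Only KYDS 4 fell below the highest CON library, so the groups barely overlapped. The group means were 2.07 ± 0.976 (SD, n = 5) and 5.88 ± 1.72, a log2 fold change of 1.34 ± 0.34 (adjusted p = 0.0282, limma). This call was lost without CON 1, CON 2, CON 3, KYDS 1, KYDS 3 or KYDS 5, each left out alone, at adjusted p from 0.0541 to 0.0767, and without CON 2 and BGZ_L 3 together (1.29, adjusted p = 0.0591). It passed without KYDS 3, KYDS+BGZ_L 1 and KYDS+BGZ_L 4 together (1.31, adjusted p = 0.0499).

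Cyp2c12 was at 2.79, 3.89, 4.20, 8.38 and 9.45 scaled TPM in CON. In KYDS it was at 17.5, 15.0, 16.7, 8.39 and 22.1. Every KYDS library but KYDS 4 lay above all of CON. Its mean went from 5.74 ± 2.97 to 15.9 ± 4.96, a log2 fold change of 1.47 ± 0.43 (adjusted p = 0.0482, limma). The adjusted p is close to the threshold, and it missed it in 12 of the 20 fits that left out 1 library: those without CON 1 to CON 3, BGZ_L 4, BGZ_L 5, KYDS 1 to KYDS 3, KYDS 5, or KYDS+BGZ_L 1, KYDS+BGZ_L 3 or KYDS+BGZ_L 5, with adjusted p up to 0.12. It was also lost in 9 of 12 other settings, among them median-ratio scaling (adjusted p = 0.0558), the replicate block (adjusted p = 0.0514), the fits without CON 2 and BGZ_L 3 (1.37, adjusted p = 0.0961) and without KYDS 3, KYDS+BGZ_L 1 and KYDS+BGZ_L 4 (1.42, adjusted p = 0.10).

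Cyp4b1 was at 17.1, 13.8, 15.8, 22.5 and 17.4 scaled TPM in CON. In KYDS it was at 7.95, 10.8, 4.83, 9.0 and 5.50. The groups did not overlap, which held for 3.18% of all genes in this direction. The mean went from 17.3 ± 3.22 to 7.61 ± 2.46, a fall of 1.17 ± 0.28 on the log2 scale by limma (log2 fold change -1.17, adjusted p = 0.0232), but without scaling between libraries the value was 0.11 (adjusted p = 0.867). Scaling sets the reference here, since unscaled TPM put the median of all genes 1.03 log2 higher in KYDS than in CON. Relative to that median Cyp4b1 was lower in both versions. The call was also lost without KYDS 3 (adjusted p = 0.0680) or KYDS 5 (adjusted p = 0.0681), and without KYDS 3, KYDS+BGZ_L 1 and KYDS+BGZ_L 4 together (-1.04, adjusted p = 0.0709).

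Cyp4f1, an arachidonic acid and leukotriene hydroxylase, did not pass, yet its groups were apart. Its CON values were 31.1, 27.3, 53.4, 40.3 and 54.5 scaled TPM, and its KYDS values 58.7, 71.5, 100, 67.9 and 59.5. The lowest KYDS library lay above the highest CON library, as in 3.32% of all genes, with a log2 difference of 0.81 ± 0.25 (adjusted p = 0.0538, limma). Cyp2d4, described with the 2D genes, was next at 1.28 ± 0.41 (adjusted p = 0.0641).

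The count for this comparison moved with single libraries and with the setting. It was 0 without KYDS 3 or KYDS 5, 1 without CON 1, CON 2, CON 3 or KYDS 1, and 5 without CON 5, each left out alone. Without CON 2 and BGZ_L 3 it was 1 (Cyp4b1), and without KYDS 3, KYDS+BGZ_L 1 and KYDS+BGZ_L 4 it was also 1 (Cyp4v3). Without scaling, 22 of 32 tested genes passed, all higher, where 48.8% of all genes passed. When each library's log2 ratio of nuclear over mitochondrial TPM entered the fit as a covariate, 0 passed, where 0.194% of all genes did. In that fit Cyp4b1 was at -1.23 (adjusted p = 0.298; 0.11 without scaling and without the covariate), Cyp2c12 at 1.13 (adjusted p = 0.701) and Cyp4v3 at 0.51 (adjusted p = 0.824), so the value of Cyp4v3 became much smaller and that of Cyp4b1 did not. The mitochondrial share itself was 32.7 percentage points lower in KYDS than in CON (difference -32.7, exact permutation p = 0.0238, two-sided). In KYDS+BGZ_L against BGZ_L the difference was -18.5 points (exact permutation p = 0.135, two-sided). Because the share ran with hydrocortisone, the covariate fit cannot tell the share and the treatment apart. The part of the share in the gene results was not tested.

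KYDS+BGZ_L against BGZ_L asks the same question in rats that all received BGZ_L, and shares no library with the comparison above. Here 12 of the 31 genes passed, against 17.4% of all genes. The 11 that rose were Cyp3a18, Cyp2c22, Cyp3a23/3a1, Cyp4v3, Cyp2d4, Cyp2d2, Cyp2c11, Cyp2d3, Cyp2c6v1, Cyp2c12 and Cyp2f4, against 8.81% of all genes higher, and Cyp4b1 again fell (-0.18 and not passed without scaling), against 8.55% lower. The median log2 difference was 1.02, against 0.06 over all genes, with 29 positive and 2 negative. In 7 genes every KYDS+BGZ_L library lay above every BGZ_L library, which held for 7.2% of all genes.

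**Figure D2:**
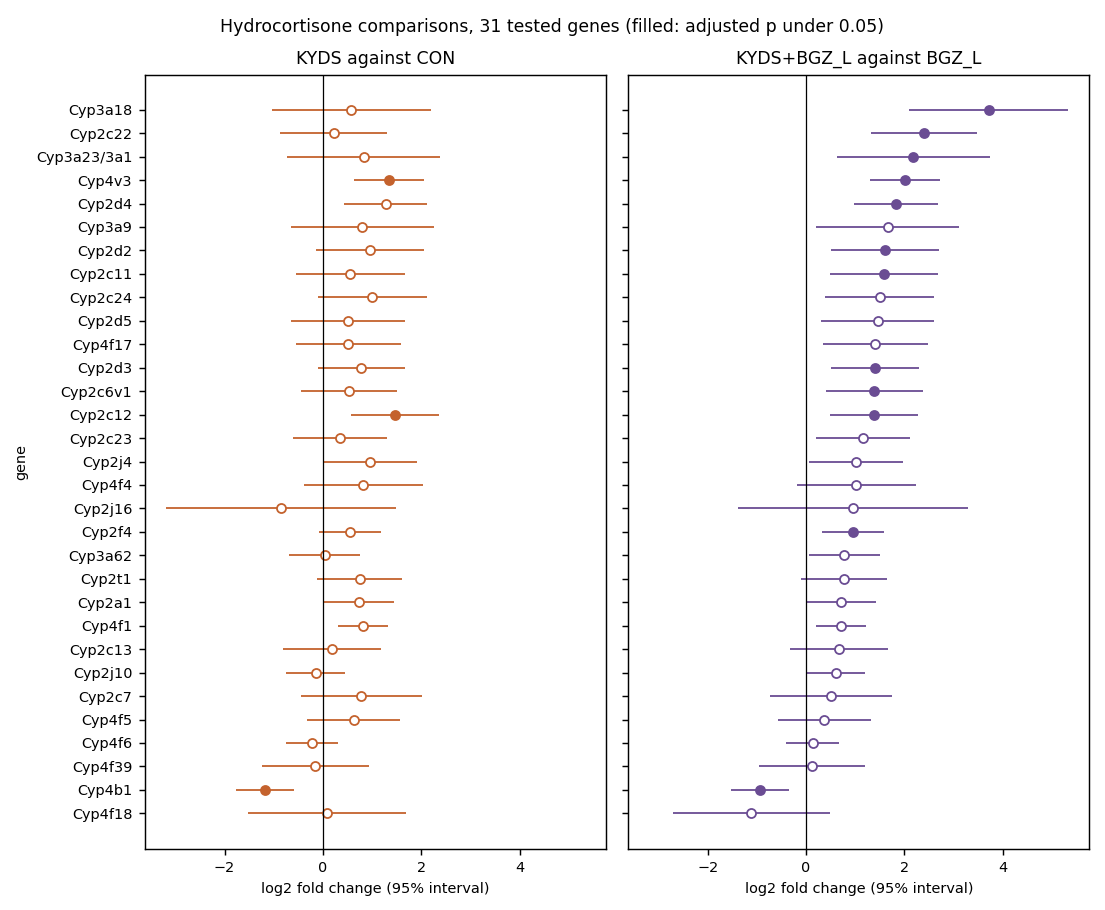
Log2 fold changes of the 31 tested genes with 95% intervals (limma) for KYDS against CON (left) and KYDS+BGZ_L against BGZ_L (right), filled where the adjusted p was under 0.05. There are 3 filled points on the left and 12 on the right, where Cyp3a18 reaches 3.72. Cyp4b1 is the filled point below 0 in both, and its value on the left was 0.11 without scaling.

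The 3A genes oxidise steroids and many drugs. Cyp3a18, a male-predominant steroid hydroxylase, was at 23.3, 4.63, 1.65, 4.54 and 6.80 scaled TPM in BGZ_L 1 to BGZ_L 5. In KYDS+BGZ_L 1 to KYDS+BGZ_L 5 it was at 131, 29.6, 79.4, 142 and 84.4. The groups did not overlap, and the log2 fold change was 3.72 ± 0.77 (adjusted p = 0.00459, limma), a fold of 13.2 on this scale. In the pair without BGZ_L its values were 35.4, 12, 5.47, 48.4 and 61.1 in CON and 21.9, 7.46, 184, 38.2 and 46.1 in KYDS. These overlapped, with 1 high KYDS library, and the log2 difference of 0.58 ± 0.77 did not pass (adjusted p = 0.685, limma).

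Cyp3a23/3a1 showed a smaller and less even difference. It was at 241, 39.5, 25.4, 41.9 and 102 scaled TPM in BGZ_L. In KYDS+BGZ_L it was at 573, 162, 159.8, 436 and 315. The groups overlapped through BGZ_L 1, and the log2 fold change was 2.18 ± 0.74 (adjusted p = 0.0493, limma), a call lost in 13 of the 20 fits without 1 library: those without CON 1, CON 2, CON 5, any of BGZ_L 2 to BGZ_L 5, KYDS 1, KYDS 4, KYDS 5, KYDS+BGZ_L 1, KYDS+BGZ_L 4 or KYDS+BGZ_L 5, with adjusted p up to 0.129. It was also lost in 9 of 12 other settings, 5 of them with adjusted p from 0.0501 to 0.0527. Without CON 2 and BGZ_L 3 the value was 1.87 (adjusted p = 0.126), and without KYDS 3, KYDS+BGZ_L 1 and KYDS+BGZ_L 4 it was 1.67 (adjusted p = 0.248). In CON it was at 109, 46.0, 36.7, 357 and 119 and in KYDS at 126, 33.8, 652, 153 and 326, where the log2 difference was 0.83 ± 0.74 (adjusted p = 0.520, limma). Of the other 3A genes, Cyp3a9, known as female-predominant, had a log2 difference of 1.66 ± 0.69 (adjusted p = 0.104) and Cyp3a62, known mainly from the intestine, of 0.78 ± 0.35 (adjusted p = 0.127), both from KYDS+BGZ_L against BGZ_L by limma. So 2 of 4 3A genes rose in KYDS+BGZ_L against BGZ_L, where 8.81% of all genes did, and 0 of 4 passed in KYDS against CON, where 6.27% of all genes did. None of the 4 passed the test of the difference between these comparisons, the interaction given further on.

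All 8 of the 2C genes were tested, and 4 of them rose in KYDS+BGZ_L against BGZ_L (8.81% of all genes did), and 1 of 8 passed in KYDS against CON (6.27% of all genes did). Cyp2c22, characterised as a retinoid hydroxylase, was at 9.35, 10.3, 4.86, 4.01 and 6.74 scaled TPM in BGZ_L. The KYDS+BGZ_L libraries had 86.7, 12.3, 19.6, 106 and 30.7. The lowest KYDS+BGZ_L value was above the highest BGZ_L value, and 2 libraries, KYDS+BGZ_L 1 and KYDS+BGZ_L 4, were far above the rest. The log2 fold change was 2.39 ± 0.52 (adjusted p = 0.00552, limma), and 1.5 (adjusted p = 0.0387) without these 2 libraries and KYDS 3. In CON it was at 12.3, 12.4, 12.8, 22.5 and 21.0 and in KYDS at 9.37, 19.4, 52.5, 14.1 and 14.7, which overlapped, with a log2 difference of 0.22 ± 0.52 (adjusted p = 0.834, limma).

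Cyp2c6v1, the most abundant of the 40, was at 964, 345, 265, 1038 and 837 scaled TPM in BGZ_L. In KYDS+BGZ_L it was at 1900.1, 814, 1734, 2632 and 1347. Only KYDS+BGZ_L 2 lay within the BGZ_L range, and the log2 fold change was 1.39 ± 0.47 (adjusted p = 0.0467, limma), lost in 12 of the 20 fits without 1 library: those without CON 2, CON 4, CON 5, BGZ_L 2, BGZ_L 3, KYDS 1, KYDS 2, KYDS 5, KYDS+BGZ_L 1 or any of KYDS+BGZ_L 3 to KYDS+BGZ_L 5, with adjusted p up to 0.136. It was also lost in 7 of 12 other settings, including those without CON 2 and BGZ_L 3 (1.12, adjusted p = 0.142) and without KYDS 3, KYDS+BGZ_L 1 and KYDS+BGZ_L 4 (1.07, adjusted p = 0.266). In CON it was at 1132, 595, 240.3, 704 and 713 and in KYDS at 1018, 1232, 1444, 506 and 556, which overlapped widely (0.53 ± 0.47, adjusted p = 0.514).

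Cyp2c11 and Cyp2c13 are male-specific steroid hydroxylases driven by the male growth hormone pattern. Cyp2c11 was at 29.2, 27.2, 21.8, 24.6 and 18.4 scaled TPM in BGZ_L. The KYDS+BGZ_L libraries had 129, 32.8, 50.6, 141 and 66.4. The groups did not overlap, with a log2 fold change of 1.58 ± 0.53 (adjusted p = 0.0448, limma), lost in 11 of the 20 fits without 1 library: those without CON 1, CON 2, CON 5, any of BGZ_L 2 to BGZ_L 5, KYDS 5, KYDS+BGZ_L 1, KYDS+BGZ_L 4 or KYDS+BGZ_L 5, with adjusted p up to 0.125. It was also lost in 5 of 12 other settings, including those without CON 2 and BGZ_L 3 (1.57, adjusted p = 0.0946) and without KYDS 3, KYDS+BGZ_L 1 and KYDS+BGZ_L 4 (1.0, adjusted p = 0.246). In CON it was at 27.0, 28.9, 94.6, 24.9 and 26.7, where CON 3 stood alone, and in KYDS at 33.7, 14.7, 170.5, 56.7 and 72.0.

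Cyp2c13, named for its abundance, did not pass in any comparison. It was at 114, 152, 401, 96.3 and 81.7 scaled TPM in CON and at 135, 68.9, 341, 167 and 195 in KYDS (log2 difference 0.18 ± 0.47, adjusted p = 0.848, limma). In BGZ_L it was at 95.5, 91.3, 222, 134 and 113 and in KYDS+BGZ_L at 233, 94.4, 150.4, 467 and 191 (0.67 ± 0.47, adjusted p = 0.352). All 4 groups overlapped.

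The female-specific Cyp2c12 rose here too. It was at 6.19, 1.82, 1.25, 4.90 and 5.86 scaled TPM in BGZ_L and at 8.60, 17.2, 8.0, 4.61 and 15.6 in KYDS+BGZ_L. Only KYDS+BGZ_L 4 lay within the BGZ_L range, and the log2 fold change was 1.38 ± 0.43 (adjusted p = 0.0330, limma). That call was lost without BGZ_L 2, BGZ_L 3, KYDS+BGZ_L 1, KYDS+BGZ_L 2 or KYDS+BGZ_L 5, at adjusted p from 0.0604 to 0.10, without CON 2 and BGZ_L 3 (1.12, adjusted p = 0.0999) and without KYDS 3, KYDS+BGZ_L 1 and KYDS+BGZ_L 4 (1.78, adjusted p = 0.0627). The remaining 2C genes did not pass in this comparison: Cyp2c24 had a log2 difference of 1.5 ± 0.53 (adjusted p = 0.0575), the epoxygenase Cyp2c23 of 1.15 ± 0.46 (adjusted p = 0.0848) and the female-predominant Cyp2c7 of 0.51 ± 0.59 (adjusted p = 0.585).

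Among the 2D genes, which oxidise many basic drugs, 3 of 4 rose in KYDS+BGZ_L against BGZ_L, where 8.81% of all genes did, and 0 of 4 passed in KYDS against CON, where 6.27% did. Cyp2d4, known as the brain form, was at 4.5, 1.85, 2.72, 3.21 and 2.41 scaled TPM in BGZ_L. In KYDS+BGZ_L it was at 16.9, 4.69, 9.17, 19.6 and 12.5. The groups did not overlap, and the log2 fold change was 1.83 ± 0.41 (adjusted p = 0.00636, limma). In CON it was at 1.90, 1.94, 1.55, 4.69 and 4.83 and in KYDS at 5.10, 4.76, 14.3, 4.34 and 12.6, which overlapped. Without KYDS 3, KYDS+BGZ_L 1 and KYDS+BGZ_L 4 the rise under BGZ_L was 1.39 (adjusted p = 0.0792).

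Cyp2d2 was at 185, 33.7, 45.3, 100.4 and 119 scaled TPM in BGZ_L. The KYDS+BGZ_L libraries had 429, 124, 176, 395 and 247. The overlap came from BGZ_L 1, and the log2 fold change was 1.61 ± 0.53 (adjusted p = 0.0408, limma). Cyp2d3 had the same high and low libraries, at 137, 53.1, 62.4, 66.4 and 84.1 in BGZ_L and 358, 101, 154, 336 and 177 in KYDS+BGZ_L, with a log2 fold change of 1.40 ± 0.42 (adjusted p = 0.0290, limma). For both, the 3 highest libraries of the 20 were KYDS 3, KYDS+BGZ_L 1 and KYDS+BGZ_L 4. Without those 3 libraries neither passed (Cyp2d2 1.14, adjusted p = 0.269, and Cyp2d3 0.90, adjusted p = 0.182), and each call was also lost without BGZ_L 2, BGZ_L 3, BGZ_L 4, KYDS+BGZ_L 1 or KYDS+BGZ_L 4 alone, that of Cyp2d2 also without KYDS+BGZ_L 5, at adjusted p from 0.0576 to 0.110. Without CON 2 and BGZ_L 3, Cyp2d2 was at 1.42 (adjusted p = 0.109) and Cyp2d3 at 1.35 (adjusted p = 0.0723). In the pair without BGZ_L, Cyp2d2 was at 162, 79.3, 31.5, 202 and 151 in CON and 194, 172, 414, 131 and 188 in KYDS (0.95 ± 0.53, adjusted p = 0.277).

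Cyp2d3 was at 138, 80.8, 45.5, 139 and 121 in CON and 131, 126, 437, 119 and 151 in KYDS, where KYDS 3 stood apart (0.78 ± 0.42, adjusted p = 0.268, limma). Cyp2d5, the fifth in abundance, was at 266, 127, 18.8, 218 and 192 in CON and 211, 171, 307, 104 and 138 in KYDS. It was at 186, 65.6, 47.5, 64.3 and 124 in BGZ_L and 327, 158, 237, 273 and 218 in KYDS+BGZ_L. BGZ_L 1 was the only BGZ_L library inside the KYDS+BGZ_L range, and the log2 difference of 1.45 ± 0.55 did not pass (adjusted p = 0.0748, limma).

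Cyp2f4, a lung-enriched enzyme that activates naphthalene, was at 11.5, 4.74, 6.05, 7.53 and 6.69 scaled TPM in BGZ_L. In KYDS+BGZ_L it was at 11.8, 16.1, 15.1, 13.1 and 14.2. The groups lay close but did not overlap, with a log2 fold change of 0.95 ± 0.30 (adjusted p = 0.0364, limma). The call was lost in 9 of the 20 fits without 1 library, those without any of BGZ_L 2 to BGZ_L 5 or any KYDS+BGZ_L library, at adjusted p from 0.0578 to 0.0902, and also without CON 2 and BGZ_L 3 (0.93, adjusted p = 0.0698) and without KYDS 3, KYDS+BGZ_L 1 and KYDS+BGZ_L 4 (1.07, adjusted p = 0.0943). In CON it was at 6.95, 5.66, 3.99, 14.2 and 11.4 and in KYDS at 17.0, 13.4, 7.22, 11.2 and 10.5 (0.55 ± 0.30, adjusted p = 0.277). Lung airway markers (Scgb1a1, Sftpc and Sftpa1) summed to at most 0.781 scaled TPM in any library. Cyp2a1 (0.71 ± 0.34), Cyp2t1 (0.77 ± 0.42), Cyp2j4 (1.02 ± 0.46), Cyp2j10 (0.61 ± 0.29) and Cyp2j16 (0.96 ± 1.12) completed family 2 and did not pass, at adjusted p from 0.127 to 0.586.

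In family 4, Cyp4v3 had the smallest adjusted p of the 31 genes. It was at 3.39, 1.67, 0.753, 1.81 and 1.22 scaled TPM in BGZ_L. The KYDS+BGZ_L libraries had 12.7, 5.24, 5.07, 13.1 and 7.33. The groups did not overlap, with means of 1.77 ± 0.995 (SD, n = 5) and 8.67 ± 3.93 and a log2 fold change of 2.01 ± 0.34 (adjusted p = 0.00166, limma). Cyp4b1 was at 16.2, 11.3, 5.59, 17.9 and 11.2 in BGZ_L and 5.19, 6.48, 8.14, 4.49 and 5.28 in KYDS+BGZ_L. BGZ_L 3 was the only BGZ_L library inside the KYDS+BGZ_L range, and the log2 fold change was -0.94 ± 0.28 (adjusted p = 0.0278, limma), and -0.18 (adjusted p = 0.831) without scaling, when the median of all genes was 0.63 higher. That call was lost without BGZ_L 1, BGZ_L 4, KYDS+BGZ_L 1, KYDS+BGZ_L 4 or KYDS+BGZ_L 5 alone, at adjusted p from 0.0520 to 0.0788, and without KYDS 3, KYDS+BGZ_L 1 and KYDS+BGZ_L 4 (-0.76, adjusted p = 0.184).

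None of the 7 tested 4F genes passed in either hydrocortisone comparison by limma. Cyp4f1 had a log2 difference of 0.71 ± 0.25 (adjusted p = 0.0517) in KYDS+BGZ_L against BGZ_L, and its groups did not overlap there either, at 41.0, 43.5, 37.8, 40.3 and 39.9 scaled TPM in BGZ_L and 79.9, 52.1, 57.2, 102 and 53.0 in KYDS+BGZ_L. Cyp4f17 was at 1.41 ± 0.51 (adjusted p = 0.0621), Cyp4f4 at 1.02 ± 0.58 (adjusted p = 0.234), Cyp4f5 at 0.37 ± 0.45 (adjusted p = 0.607), Cyp4f6 at 0.13 ± 0.26 (adjusted p = 0.753), Cyp4f39, an enzyme of skin lipid synthesis, at 0.12 ± 0.52 (adjusted p = 0.895) and Cyp4f18, a leukotriene hydroxylase of neutrophils, at -1.11 ± 0.77 (adjusted p = 0.333). The 4F members Cyp4f6 and Cyp4f1 were the ones with the highest levels, at means of 85.0 and 55.6 scaled TPM.

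**Figure D3:**
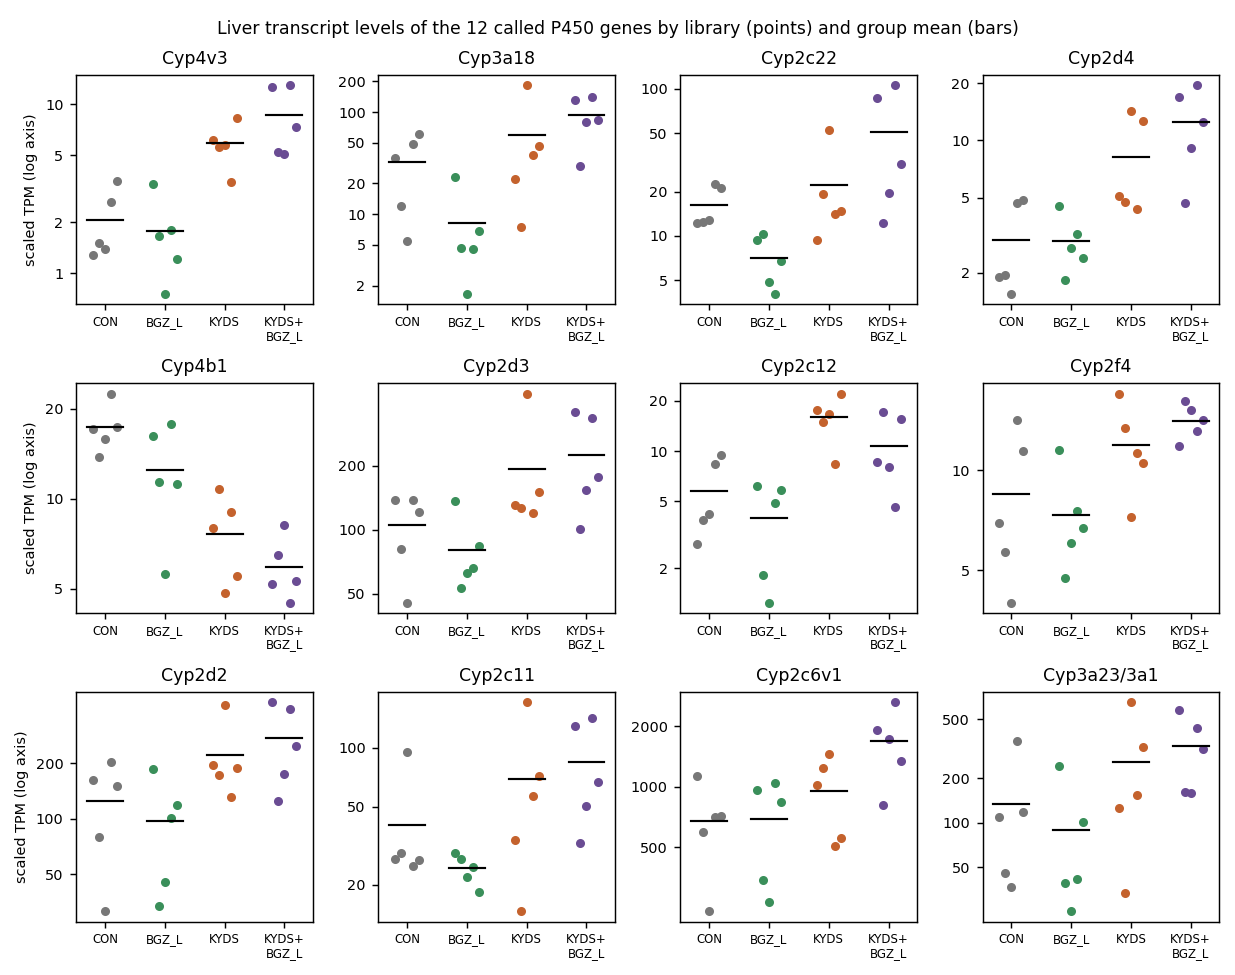
Scaled TPM (log axis) in each of the 20 libraries for the 12 genes that passed in either hydrocortisone comparison, with the group mean as a bar (n = 5 per group). KYDS+BGZ_L values lie above all BGZ_L values for Cyp4v3, Cyp3a18, Cyp2c22, Cyp2d4, Cyp2f4 and Cyp2c11, and Cyp4b1 runs lower with hydrocortisone on this scaled axis (without scaling its log2 difference was 0.11 in KYDS against CON).

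The calls of Cyp4v3, Cyp3a18 and Cyp2c22 in KYDS+BGZ_L against BGZ_L held in all 32 other fits, and that of Cyp2d4 in 31. The count for the 31 genes moved in both directions. It was 16 of 32 tested genes without scaling, all higher and among them all 11 that rose in the scaled values. The median of all genes was also higher without scaling, so these 16 are no separate result about these genes. The count was 17 without CON 3 and 15 without BGZ_L 1. Without KYDS 3, KYDS+BGZ_L 1 and KYDS+BGZ_L 4, a choice made after the data were seen, 3 passed (Cyp4v3, Cyp3a18 and Cyp2c22), where 2.24% of all genes did. With that nuclear over mitochondrial covariate 4 passed, those 3 and Cyp2d4. The count was 6 without CON 2 and BGZ_L 3: Cyp4v3, Cyp3a18, Cyp2c22, Cyp2d4 and Cyp2j10 higher, and Cyp4b1 lower on the scaled values. It was 4 without KYDS+BGZ_L 1, 5 without BGZ_L 2, KYDS+BGZ_L 4 or KYDS+BGZ_L 5, and 6 without BGZ_L 3 or BGZ_L 4, each left out alone. Apart from the fit in which 3 passed, the share of all genes is not given for these settings. Their counts are therefore not read against a background.

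BGZ_L against CON asks what BGZ_L did in rats without hydrocortisone. By limma 0 of the 31 genes passed, and 0% of all genes did. At an unadjusted p under 0.05 there were 3 of the 31 and 714 of 11867 genes (6.02%). These 3 were Cyp3a18, with a log2 difference of -1.94 ± 0.77, Cyp2c22, with -1.17 ± 0.52, and Cyp3a9, with -1.45 ± 0.69, at adjusted p of 0.784, 0.799 and 0.826. The same BGZ_L libraries are the reference of KYDS+BGZ_L against BGZ_L. Low values here and rises there, as for Cyp3a18 and Cyp2c22, are therefore not separate observations. The Cyp2c22 values given above did not overlap, all 5 BGZ_L libraries lying below all 5 CON libraries, as in 0.329% of all genes. Cyp3a9 was at 12.8, 1.30, 1.06, 9.78 and 11.5 scaled TPM in CON and 4.97, 0.360, 0, 3.0 and 3.12 in BGZ_L, with broad overlap. The median log2 difference of the 31 was -0.28, against -0.01 over all genes, with 24 negative and 7 positive. The 95% interval of Cyp2c6v1 ran from -1.0 to 0.96 and that of Cyp3a23/3a1 from -2.13 to 0.98.

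KYDS+BGZ_L against KYDS asks what BGZ_L did in rats given hydrocortisone, and shares no library with BGZ_L against CON. Again 0 of 31 passed by limma, against 0.126% of all genes, and 0 had an unadjusted p under 0.05, where 405 of 11867 genes (3.41%) did. The median log2 difference was 0.28, against -0.02 over all genes, with 21 positive and 10 negative. Cyp2c22 was at 1.0 ± 0.52, Cyp3a18 at 1.2 ± 0.77 and Cyp2c6v1 at 0.84 ± 0.47. Cyp2c12 was at -0.62 ± 0.43. The 95% interval for Cyp4v3 was -0.24 to 1.17 and for Cyp4b1 -0.90 to 0.28.

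**Figure D4:**
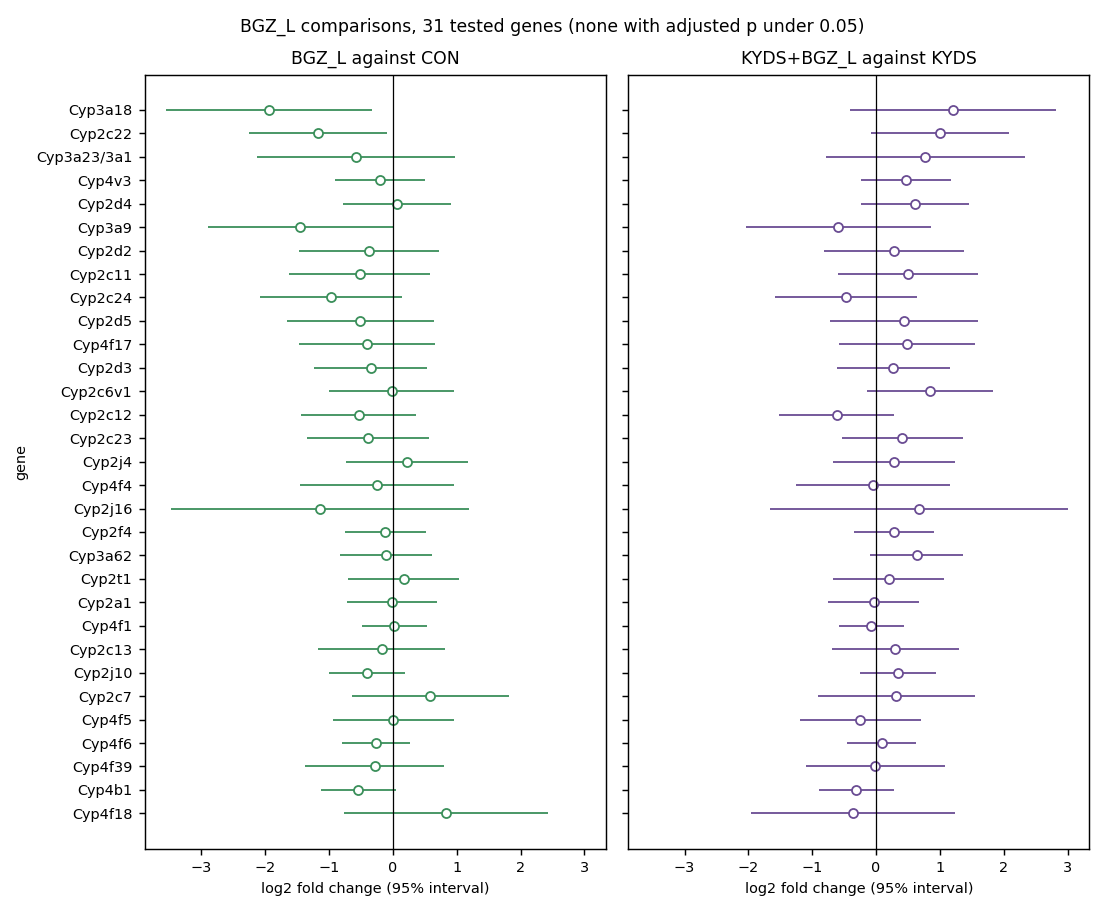
Log2 fold changes of the 31 tested genes with 95% intervals (limma) for BGZ_L against CON (left) and KYDS+BGZ_L against KYDS (right), in the gene order of the hydrocortisone plot. No point is filled, since none passed. Cyp3a18 lies at -1.94 on the left and 1.2 on the right, and Cyp2c22 at -1.17 and 1.0.

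Whether the response to hydrocortisone differed with BGZ_L was tested as an interaction. None of the 31 genes passed by limma (0.0253% of all genes did), so the larger count under BGZ_L is not shown to be a different response. Cyp2c22, at 2.18 ± 0.73, and Cyp3a18, at 3.14 ± 1.09, had unadjusted p of 0.00767 and 0.00952 and adjusted p of 0.999 each, and they were the only 2 of the 31 under 0.05 unadjusted, where 446 of 11867 genes (3.76%) were. The interaction reuses the libraries of the comparisons above, so it is not a separate observation either. The median interaction of the 31 was 0.55, against -0.01 over all genes. The 2 hydrocortisone comparisons gave Cyp4v3 1.34 and 2.01, Cyp2c12 1.47 and 1.38 and Cyp4b1 -1.17 and -0.94 (0.11 and -0.18 without scaling), with interactions of 0.67 ± 0.48, -0.08 ± 0.61 and 0.23 ± 0.40.

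The 31 genes varied more between rats of a group than most genes did. The median SD of log2 values within a group was 0.82 in CON, 0.77 in BGZ_L, 0.68 in KYDS and 0.63 in KYDS+BGZ_L, against 0.55, 0.54, 0.46 and 0.38 over all tested genes. The steadiest were Cyp2j10 in KYDS+BGZ_L, at 0.06, and Cyp4f1 in BGZ_L, at 0.07. The high values shared libraries. KYDS 3, KYDS+BGZ_L 1 and KYDS+BGZ_L 4, the libraries with the highest hepatocyte marker sums, held the highest value of 18 of the 31 genes, and a library with hydrocortisone held it for 25. CON 3, with the lowest hepatocyte sum at 5176, held the lowest value of 12 of the 28 genes that had no 0, yet the highest CON value of Cyp2c11, Cyp2c13 and Cyp2c7. Such counts of highest and lowest values were not taken over all genes. They are therefore not read as particular to these genes.

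**Figure D5:**
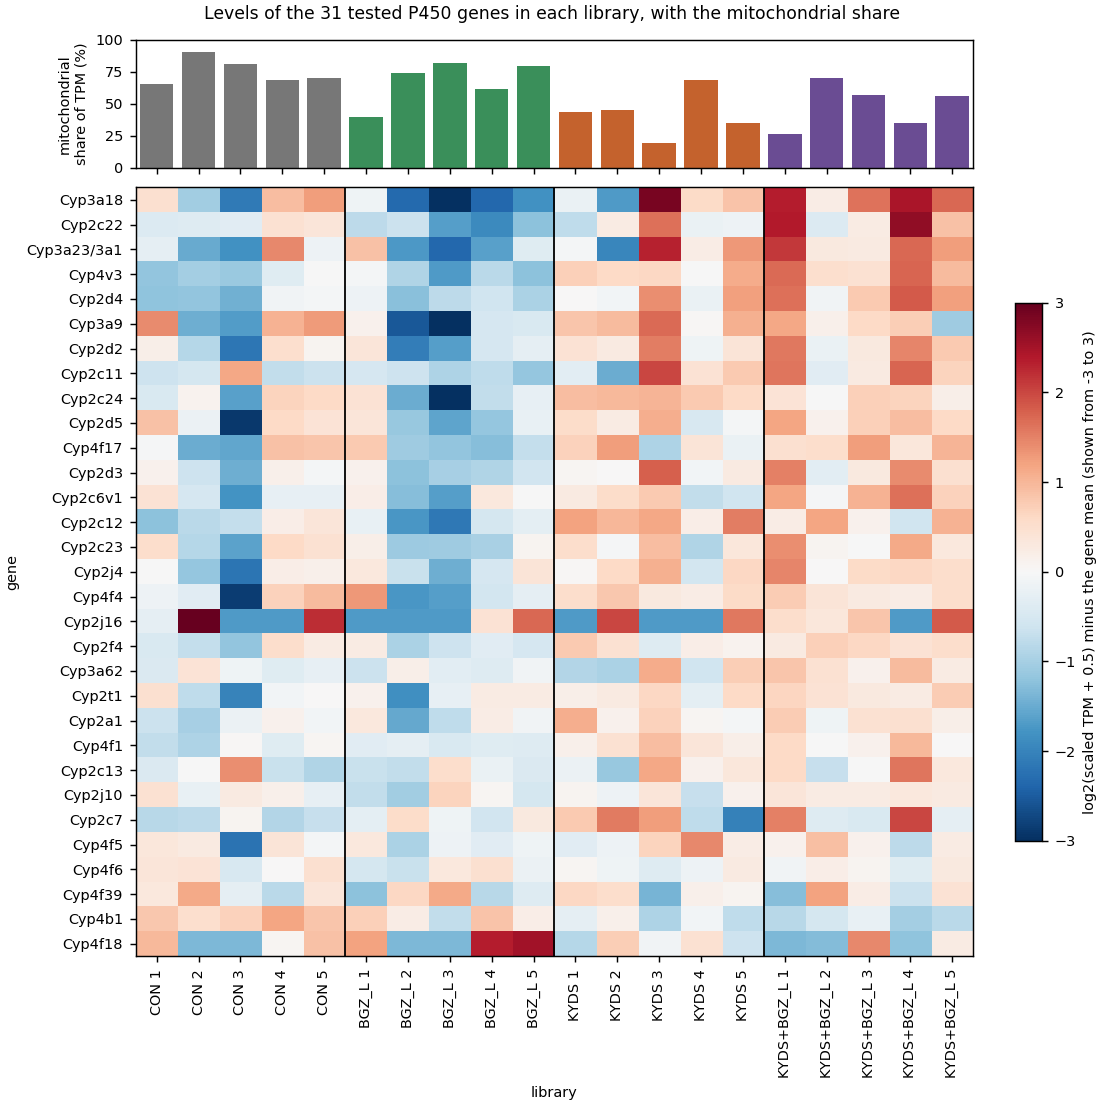
Bars give the mitochondrial share of TPM (%) in each of the 20 libraries, and the map gives log2(scaled TPM + 0.5) of the 31 tested genes minus each gene's mean, shown from -3 to 3. KYDS 3, KYDS+BGZ_L 1 and KYDS+BGZ_L 4, whose mitochondrial shares were 19.2%, 26.6% and 35.1%, hold the highest value of 18 of the 31 genes, and CON 3, at 80.8%, the lowest of 12. The same counts were not taken over all genes.

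Summed over the 40 genes, scaled TPM was 1984 ± 536 (SD, n = 5) in CON, 1693 ± 590 in BGZ_L, 2813 ± 1172 in KYDS and 3936 ± 1480 in KYDS+BGZ_L. Cyp2c6v1 alone made up a mean of 32.8%, 38.7%, 34.0% and 42.7% of the sum in these groups, in that order. Markers of cell types were read beside these values. Over all genes 3.25% were higher and 3.02% lower in KYDS against CON. In KYDS+BGZ_L against BGZ_L these shares were 8.81% and 8.55%. Of the 8 hepatocyte markers, 3 were higher in KYDS against CON, and 5 were higher and 1 lower in KYDS+BGZ_L against BGZ_L. Of 6 markers of pericentral hepatocytes, where most of these P450 enzymes are known to be made, none passed in either comparison, and their sum ran from 89.7 to 238 scaled TPM in CON, 134 to 227 in BGZ_L, 139 to 290 in KYDS and 158 to 323 in KYDS+BGZ_L. Of 6 periportal markers none passed in KYDS against CON and 2 were lower in KYDS+BGZ_L against BGZ_L. The 4 lymphocyte markers summed to 5.32 to 18.7 in CON and 8.71 to 20.8 in BGZ_L, but 1.13 to 5.68 in KYDS and 0.917 to 4.31 in KYDS+BGZ_L. The 1 lymphocyte marker that could be tested was lower in both comparisons. Both tested neutrophil markers were higher in KYDS+BGZ_L against BGZ_L (median log2 difference 1.93) and neither passed in KYDS against CON, and the 4 neutrophil markers summed to 0 to 21.1 in BGZ_L and 7.10 to 26.6 in KYDS+BGZ_L. Of 7 Kupffer cell markers 1 was higher in each comparison, and their sum ran from 48.4 to 80.3 in CON, 53.2 to 671 in BGZ_L, 73.5 to 189 in KYDS and 53.4 to 192 in KYDS+BGZ_L. A direct response of a marker to hydrocortisone and a change in cell content cannot be told apart here. The part of these shifts in the P450 results was not tested.

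Genes that differ between the sexes in rat liver were counted by a list. Of the 3 male-biased genes analysed here, Cyp2c11, Cyp2c13 and Cyp3a18, 0 passed in KYDS against CON and 2 rose in KYDS+BGZ_L against BGZ_L. Of the 4 female-biased genes, Cyp2c12, Cyp2a1, Cyp3a9 and Cyp2c7, 1 rose in each, Cyp2c12 both times. Over all genes 3.25% were higher in the first comparison and 8.81% in the second, and lists of 3 and 4 genes are too short to read a share from. No gene was listed under the symbols Cyp2a2 or Cyp3a2, which are also on the male-biased list. Of 12 tested genes that oxidise arachidonic acid, 0 passed in KYDS against CON and 1, Cyp2c11, in KYDS+BGZ_L against BGZ_L, with medians of 0.54 and 0.87 log2, against 6.27% and 17.4% of all genes passed and medians of 0.05 and 0.06.

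Of 14 genes that supply electrons or haem to these enzymes or work beside them, 1 rose in KYDS against CON and 4 rose and 1 fell in KYDS+BGZ_L against BGZ_L. Over all genes 6.27% and 17.4% passed, so the first count is near the background. Pgrmc2, a haem-binding partner, rose in both, by 1.67 ± 0.39 (adjusted p = 0.0205, limma) and 2.09 ± 0.39 (adjusted p = 0.00255). Its relative Pgrmc1 (1.49 ± 0.35, adjusted p = 0.00873), the reductase Cyb5r3 (1.16 ± 0.34, adjusted p = 0.0244) and the quinone reductase Nqo1 (1.37 ± 0.43, adjusted p = 0.0325) rose in KYDS+BGZ_L against BGZ_L, and the monooxygenase Fmo5 fell (-1.41 ± 0.47, adjusted p = 0.0445). Nqo1 also rose in KYDS+BGZ_L against KYDS (2.50 ± 0.43, adjusted p = 0.0170). Por, the electron donor itself, had log2 differences of -0.44 ± 0.52 (adjusted p = 0.633) and -0.09 ± 0.52 (adjusted p = 0.927) in the 2 hydrocortisone comparisons, at group means of 36.8 ± 18.3 scaled TPM in CON and 27.2 ± 16.5 in KYDS.

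Among 29 tested transcriptional regulators of liver P450 genes, 2 rose and 1 fell in KYDS against CON, and 4 rose and 6 fell in KYDS+BGZ_L against BGZ_L. Over all genes 6.27% and 17.4% passed, so the first count is near the background. CAR (Nr1i3) fell in KYDS, from 45.9 ± 11.3 to 19 ± 9.77 scaled TPM (log2 fold change -1.37 ± 0.41, adjusted p = 0.0497, limma), with -1.13 ± 0.41 (adjusted p = 0.0599) in the pair under BGZ_L. PXR (Nr1i2) fell in KYDS+BGZ_L against BGZ_L, from 50.7 ± 22.9 to 21.2 ± 6.22 (-1.17 ± 0.38, adjusted p = 0.0410), while its value in KYDS against CON was -0.24 ± 0.38 (adjusted p = 0.743). As with Cyp4b1, such falls depend on the scaling, since the median of all genes was higher without it in both comparisons. Calls of the regulators, the partner genes above and the other P450 genes below were not followed through the other settings. The growth hormone receptor Ghr rose in both, by 1.42 ± 0.40 (adjusted p = 0.0433) and 1.53 ± 0.40 (adjusted p = 0.0141). Foxa3 rose in KYDS (1.12 ± 0.29, adjusted p = 0.0329), and Foxa1 (1.25 ± 0.34), Foxa2 (1.72 ± 0.38) and the growth hormone target Socs2 (2.40 ± 0.59) in KYDS+BGZ_L against BGZ_L, at adjusted p from 0.00636 to 0.0166.

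The regulators that fell in KYDS+BGZ_L against BGZ_L besides PXR were the clock-controlled factors Dbp (-4.37 ± 0.38, adjusted p = 1.55e-06, limma) and Tef (-1.78 ± 0.20, adjusted p = 3.56e-05), the fatty acid receptor Ppara (-1.99 ± 0.59, adjusted p = 0.0269), its coactivator Ppargc1a (-2.99 ± 0.63, adjusted p = 0.00470) and Prox1 (-2.74 ± 0.68, adjusted p = 0.0107). Dbp also fell in KYDS+BGZ_L against KYDS (-3.37 ± 0.38, adjusted p = 0.000340) and in the interaction (-4.14 ± 0.54, adjusted p = 0.00307). The labels give no time of day at which livers were taken. The glucocorticoid receptor Nr3c1 had log2 differences of 0.39 ± 0.26 in both hydrocortisone comparisons and did not pass (adjusted p = 0.361 and 0.308).

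The 31 other P450 genes of the table, of which 19 were tested, served as a comparison. In KYDS against CON 3 of the 19 rose, Cyp8b1, Cyp17a1 and Cyp2b3, where 3.25% of all genes were higher, and the median log2 difference was 0.61, against 0.05 over all genes. In KYDS+BGZ_L against BGZ_L 8 rose and 2 fell, where 17.4% of all genes passed, and the median was 0.47, against 0.06 over all genes. In KYDS+BGZ_L against KYDS 2 rose, Cyp1a1 (3.75 ± 0.67, adjusted p = 0.0253, limma) and Cyp1a2 (3.14 ± 0.58, adjusted p = 0.0323), where none of the 31 tested genes of families 2 to 4 described here passed. The difference between these P450 groups was not tested.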

How the data were processed

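Trizol was used to extract RNA of 20 livers, DNA was digested, and libraries were sequenced on Illumina machines, and only the first read of each pair was used, per the labels' protocols. The authors deposited 1 table of TPM for 32883 rat genes. No source used here gives the aligner or counter. The submitters' processing notes name mouse builds (GRCm38, GRCm39 and mm10) although the gene identifiers are rat, so the build behind the values is unknown. TPM values keep no read totals.

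From the table, 32850 genes with a symbol were used. Libraries were scaled by a trimmed mean of log ratios (the outer 30% of ratios and 5% of levels left out on both sides), genes at 0.5 or more in at least 5 libraries were kept (11867), and log2(value + 0.5) was fitted with limma 3.58.1 in R 4.3.3, with a trended, robust prior, 4 group means and 16 residual degrees of freedom. The fold changes are on this log2 scale and understate those of low genes. P-values are two-sided and adjusted by Benjamini and Hochberg over all tested genes. Genes with per-library values are those that passed in any comparison plus the 6 most abundant, with the runner-up Cyp4f1 and with Cyp3a9 added after their values were seen. The members and lists were chosen with earlier results of these data known. No pair of libraries was identical, and 0 value columns lacked a sample. On simulated data for KYDS against CON over 11867 genes, the fit recovered 31 of 100 genes changed by 1 log2 and 84 of 100 changed by 2, and called 12 unchanged genes. The simulated noise was independent between genes, without shared differences between libraries such as those in mitochondrial share. These figures therefore do not show how the fit behaves where such differences are present. Alternatives covered scaling, the filter, the pseudocount, the prior, a covariate, a replicate term and left-out libraries. Single-gene calls were read in them only for families 2 to 4, not for regulators, partner genes, markers or other P450 genes. Promoters came from RefSeq (GRCr8), matched by symbol, and both strands were searched with Python 3.11.15.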

Additional observations from a re-analysis of the deposited data

Results flagged for a closer look

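Some values stood apart within their group of 5, with a gap to the nearest library above the 95% critical value of Dixon's ratio (0.71). Of 124 groups checked over the 31 tested genes 12 did so, all at the high end. The nominal rate of 5% holds for independent, normally distributed values. Here the ratio was taken on scaled TPM without a log, and the genes share libraries. The count of 12 therefore cannot be set against 5%. KYDS 3 was high for Cyp2d3, at 437 scaled TPM with the next library at 151, for Cyp2d2, at 414 with the next at 194, for Cyp3a18, at 184 with the next at 46.1, and for Cyp2c22, at 52.5 with the next at 19.4. CON 3 was high for the 2C genes Cyp2c13 (401, next 152), Cyp2c11 (94.6, next 28.9) and Cyp2c7 (43.9, next 25.2). BGZ_L 1 was high for Cyp4f4 (59.3, next 19.6), Cyp3a18 (23.3, next 6.80) and Cyp4f17 (2.35, next 0.507). CON 4 was high for Cyp3a23/3a1 (357, next 119) and CON 2 for Cyp2j16 (29.6, next 7.05). Outside that count, since it was listed at 0 in nearly every library and any value above 0 stands apart by construction, Cyp4x1 was at 33.7 in BGZ_L 3 and at 1.27 in KYDS+BGZ_L 1 and listed at 0 in the other libraries of those groups.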

How the results depend on the processing

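The count of genes that passed in KYDS against CON was 3 and became 22 without scaling, 0 with the mitochondrial covariate, 1 without CON 2 and BGZ_L 3, and 1 without KYDS 3, KYDS+BGZ_L 1 and KYDS+BGZ_L 4, and leaving out 1 library gave 0 to 5. In KYDS+BGZ_L against BGZ_L it was 12 and became 4 with the covariate, 5 with no filter on low values, 6 without CON 2 and BGZ_L 3, and 3 without KYDS 3, KYDS+BGZ_L 1 and KYDS+BGZ_L 4, and leaving out 1 library gave 4 to 17. Leaving out KYDS 3, KYDS+BGZ_L 1 and KYDS+BGZ_L 4 was chosen after seeing the data. The fall of Cyp4b1 in KYDS turned to 0.11 without scaling, by construction of the reference. The cause of the other shifts was not tested. Where no share of all genes is given for a setting, its count is not read against a background. BGZ_L against CON, KYDS+BGZ_L against KYDS and the interaction stayed at 0 in every setting run. Over the fits of called genes other than those without 1 library, 124 kept direction and call, 55 kept direction and lost the call, and 1 reversed. Cyp3a18 and Cyp2c22 did not pass in the interaction in any of 20 such fits. The difference in mitochondrial share between KYDS and CON ranged from -39.3 to -26.9 with 1 library left out.

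With the replicate block the counts were 2 and 11. Whether equal numbers in the labels mark matched rats is unknown. Of 30 same-number pairs, 7 correlated above 0.1 (range -0.458 to 0.335), and 2 of 20 libraries correlated best with their own number. The correlations cannot decide this, since the range of pairs with unlike numbers was not set beside them. All genes called went from 6.27% to 4.69% and from 17.4% to 15.9%. Depth cannot be read from TPM, so low levels such as those of Cyp3a62 and Cyp4f17 have unknown counting error.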
